A study of Mus musculus with 5 samples.

Results

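The 10 genes described here encode securin (*Pttg1*), separase (*Espl1*), the activators of the anaphase-promoting complex (*Cdc20* and *Fzr1*), the mitotic kinases *Plk1*, *Aurka* and *Aurkb*, and the spindle checkpoint proteins *Bub1*, *Bub1b* and *Mad2l1*. They were taken by gene symbol from the 20224 genes of the count table, and all 10 were present and passed the filter on low counts. The set was chosen by its values in the same genotype contrast, because *Pttg1* had the smallest p-value of any gene there and *Cdc20* and *Plk1* were called by DESeq2. The genotype differences of the 10 genes are therefore given as a description, without a test.

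Sympathetic neurons were sorted at E14.5 from embryos of non-diabetic pregnancies, and each RNA-seq library was prepared from 100 cells. The 2 control libraries are numbered replicates 5 and 6 and the 3 *Hif1aCKO* libraries replicates 3, 4, and 5, and values per library are listed in that order. The protocol gives the sorted controls as *Hif1a* loxP/+; Isl1Cre; tdTomatoAi14 and the sorted mutants as *Hif1a* loxP/loxP; Isl1Cre; tdTomatoAi14, both carrying Prph-eGFP, whereas the design text describes controls with 1 or 2 floxed alleles and no Cre. With the protocol's genotypes, both groups carried *Cre* in place of 1 *Isl1* allele, and the controls kept 1 intact *Hif1a* allele. Cre acts in the whole *Isl1* lineage, eGFP follows the peripherin promoter, and tdTomato reports recombination, so the gate kept *Isl1*-lineage cells with peripherin activity. Cells without *Cre* would not express tdTomato and would not pass this gate, so the protocol's genotypes are the ones that fit the sorted libraries. The methods count the libraries as biological replicates, 2 control and 3 *Hif1aCKO*. The labels name neither litters nor separate embryos for them, and the spread between libraries may be partly technical.

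In the vertebrate cell cycle, the anaphase-promoting complex, or cyclosome (APC/C), is a ubiquitin ligase that *Cdc20* activates in mitosis and *Fzr1* (Cdh1) activates from late mitosis through G1. Unattached kinetochores hold *Cdc20* inactive through the spindle checkpoint proteins, and once the checkpoint is satisfied APC/C marks securin and cyclin B for destruction, which frees separase to cleave cohesin. Embryonic sympathetic neuroblasts are unusual in that they go on dividing after they have begun to express neuronal genes.

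Sequence upstream of the RefSeq transcription start was examined because many genes with a peak of expression in mitosis carry a cell cycle genes homology region (CHR) and CCAAT boxes close to their starts. The CHR is bound by MuvB complexes and the CCAAT box by NF-Y. RefSeq promoters on GRCm38.p6 were matched for 9 of the 10 genes, the exception being *Aurkb*. The 250 bases before each start were searched on both strands for the CHR (TTTGAA or TTCGAA), for CCAAT, and for the core of the hypoxia response element, ACGTG, whose 2 strands overlap in CACGTG. Over 32851 RefSeq promoters, windows of the same length held a CHR in 17.1%, a CCAAT box in 33.8%, and the hypoxia core in 16.6%. The 5 stretches of 150 bases printed here end at the base before the RefSeq start and show *Cdc20* and *Espl1*, where a CHR lies close to a CCAAT box, *Plk1* and *Bub1*, with CCAAT boxes alone or beside a hypoxia core, and *Mad2l1*, with none of these letters. Capitals mark the matches, and ATTGG is CCAAT read from the other strand.
Cdc20, chr4:118437344-118437493, minus strand: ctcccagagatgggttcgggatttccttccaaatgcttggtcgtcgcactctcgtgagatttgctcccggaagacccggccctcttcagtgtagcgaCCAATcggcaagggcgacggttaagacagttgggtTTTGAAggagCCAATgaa
Espl1, chr15:102296143-102296292, plus strand: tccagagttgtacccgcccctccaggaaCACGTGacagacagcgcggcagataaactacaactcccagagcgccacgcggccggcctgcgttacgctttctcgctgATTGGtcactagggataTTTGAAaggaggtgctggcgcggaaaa
Plk1, chr7:122159285-122159434, plus strand: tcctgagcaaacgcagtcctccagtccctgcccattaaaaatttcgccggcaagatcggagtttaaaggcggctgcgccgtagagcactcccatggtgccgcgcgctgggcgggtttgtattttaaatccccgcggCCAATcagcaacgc
Bub1, chr2:127831860-127832009, minus strand: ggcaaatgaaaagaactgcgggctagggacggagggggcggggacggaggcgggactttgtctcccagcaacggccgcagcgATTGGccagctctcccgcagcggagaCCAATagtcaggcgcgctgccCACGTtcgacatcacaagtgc
Mad2l1, chr6:66535071-66535220, plus strand: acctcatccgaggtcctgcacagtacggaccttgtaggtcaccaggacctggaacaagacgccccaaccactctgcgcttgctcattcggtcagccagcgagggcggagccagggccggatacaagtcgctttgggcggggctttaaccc

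A CHR was matched in 3 of the 9 windows. Counted from the RefSeq start, its first base lay at -18 in *Cdc20*, at -27 in *Espl1*, and at -188 in *Bub1b*. CCAAT was matched in 7 of the 9, all except *Pttg1* and *Mad2l1*, and *Cdc20*, *Aurka* and *Bub1* held 2 matches each. The hypoxia core was matched in 5, with its first base at -119 in *Pttg1*, -184 in *Plk1*, -21 in *Bub1*, and -247 in *Bub1b*, and in both orientations in *Espl1*. These are matches of letters, with no measurement of binding. Over the printed length before the RefSeq start, 137 bases in *Pttg1* and 146 in *Fzr1* lay in annotated exons of the gene itself. In the other genes, 0 to 40 bases of this stretch lay in exons of coding genes. Both windows were kept in the counts above. The match in *Fzr1*, and the match and missing motifs in *Pttg1*, therefore describe largely sequence annotated as transcribed. The *Mad2l1* window ended at 66535220, whereas the annotated gene starts at 66535390. Bases between these positions were not searched, so the lack of matches in *Mad2l1* covers its window only. *Cdc20* and *Plk1*, with the largest differences between genotypes after *Pttg1*, had their nearest CCAAT at -8 and at -14, and *Cdc20* alone of the pair had a CHR. The window of *Pttg1* held neither motif but lay within the annotated gene, and a relation of motifs to genotype differences was not tested.

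**Figure D1:**
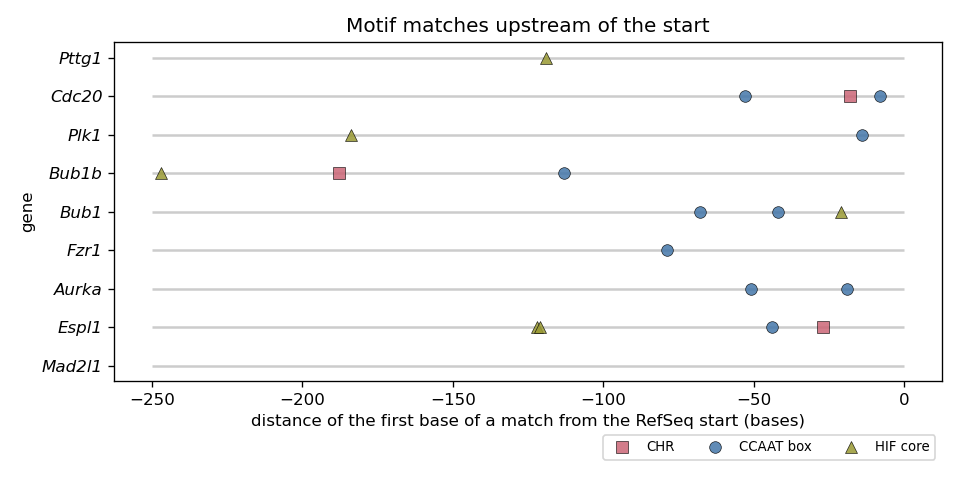
Matches of 3 motifs in the 250 bases before the RefSeq start of 9 genes, by distance of the first base of each match from the start (x axis, bases). CCAAT was matched in 7 windows, the hypoxia core in 5, the CHR in 3, and *Mad2l1* had no match. Much of the *Pttg1* and *Fzr1* windows lies in annotated exons of those genes, and the *Mad2l1* window ends before the annotated start of that gene.

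Levels were compared between genes as reads per kb of exon, scaled to library size (RPKM), since longer genes collect more reads. In control neurons, *Cdc20* had the highest level, at 91.6 ± 4.58 (SD, n = 2 libraries), followed by *Pttg1* at 74.4 ± 9.59. The mitotic kinases followed, with *Aurka* at 50.8 ± 5.11, *Plk1* at 41.2 ± 3.05, and *Aurkb* at 23.0 ± 1.26. The checkpoint genes lay close together, with *Bub1b* at 19.9 ± 0.319, *Bub1* at 18.5 ± 3.10, and *Mad2l1* at 18.1 ± 2.63, and their ranges overlapped from one to the next. *Fzr1*, the activator used outside early mitosis, had 8.47 ± 1.21 and *Espl1* 1.37 ± 0.720. All other neighbours in this order had control ranges that did not overlap. In *Hif1aCKO* neurons, the ranges of *Cdc20* (151 to 227, n = 3 libraries) and *Pttg1* (149 to 171) overlapped, as did those of *Plk1* (72.2 to 84.2) and *Aurka* (60.3 to 87.5).

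The order depends on the length used. All annotated exons of *Mad2l1* together measure 8390 bases, but its shortest principal transcript 1725, and the corresponding lengths for *Pttg1* are 2000 and 696. Per kb of the shorter transcripts, *Pttg1* stood first in control neurons at 214, ahead of *Cdc20* at 95.4 and *Mad2l1* at 87.8. *Fzr1* and *Espl1* stayed last on either scale.

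**Figure D2:**
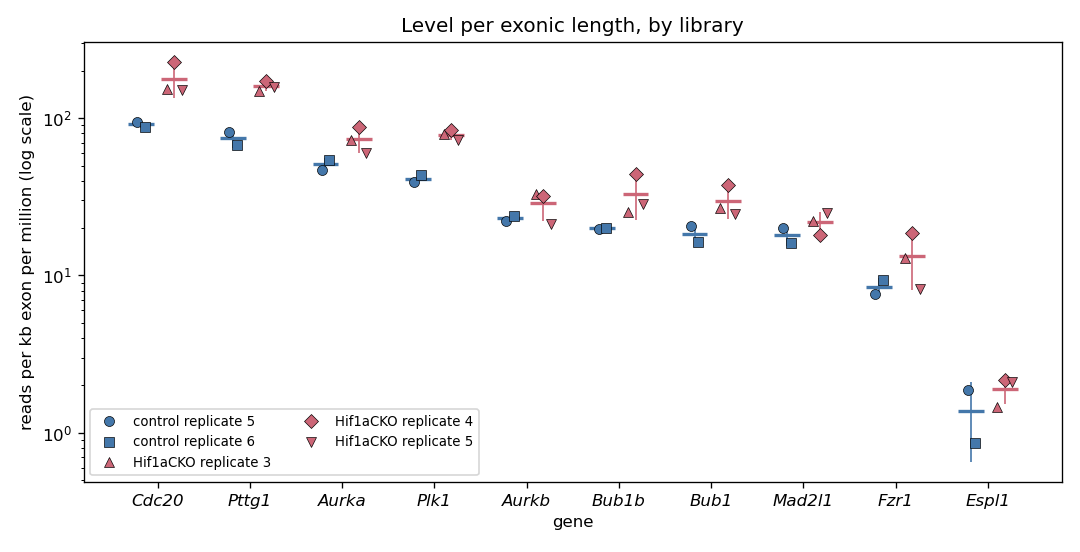
Level of each gene in each library, in reads per kb of exon scaled to library size (RPKM, log scale), with blue for control and red for *Hif1aCKO*. Horizontal bars are group means and vertical lines 1 SD (n = 2 and n = 3), and the genes are ordered by control level from *Cdc20* at 91.6 to *Espl1* at 1.37.

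All 10 genes had a higher mean in *Hif1aCKO* neurons than in control neurons, and the median of their log2 fold changes was 0.67. Over the 15032 genes tested the median was 0.012, with 7705 genes higher and 7327 lower. With edgeR's quasi-likelihood test, 0 of the 10 were called, as were 0% of all genes, and the lowest adjusted p-value of any gene was 0.446. DESeq2 called 3 of the 10, *Pttg1*, *Cdc20* and *Plk1*, where 0.194% of all genes were called higher. Unadjusted p-values were under 0.05 for 6 of the 10, where 3.83% of all genes passed in the higher direction. In the same 6, *Pttg1*, *Cdc20*, *Plk1*, *Aurka*, *Bub1* and *Bub1b*, every *Hif1aCKO* library lay above both control libraries, which held for 12.9% of all genes. These counts come from the contrast the set was chosen on. In bulk libraries, more cells of a dividing type and more RNA per cell cannot be told apart.

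**Figure D3:**
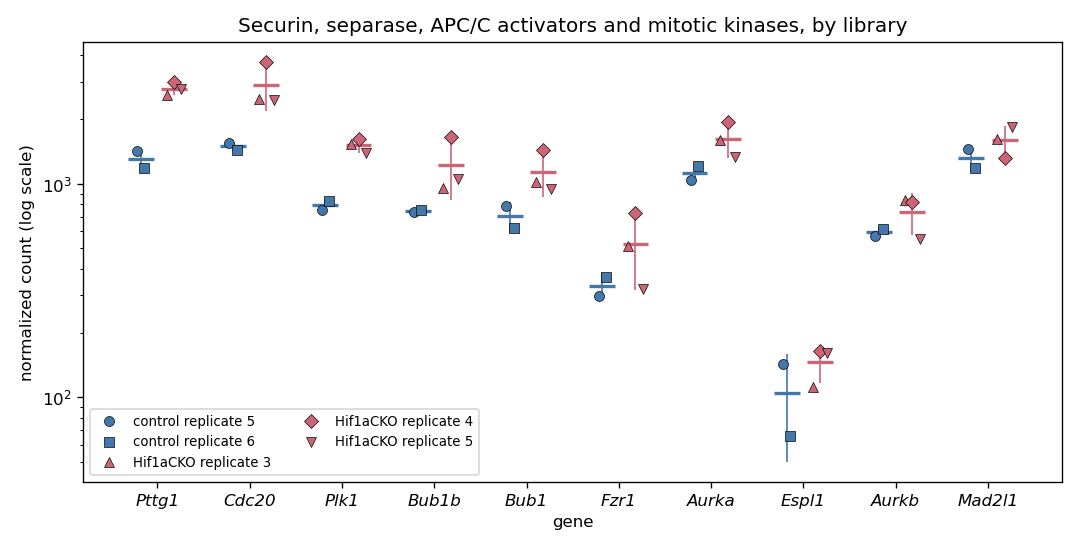
Normalized count of each gene in each of the 5 libraries on a log scale, with blue for control and red for *Hif1aCKO*, horizontal bars for group means and vertical lines for 1 SD. *Hif1aCKO* replicate 4 (diamonds) is highest for 8 of the 10 genes, and the groups overlap for *Fzr1*, *Espl1*, *Aurkb* and *Mad2l1*.

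*Pttg1* (ENSMUSG00000020415) lies on chromosome 11 of GRCm38 from 43420250 to 43426251 on the minus strand and encodes securin, the inhibitor of separase. Its normalized counts, which are scaled for library size by TMM, were 1421 and 1184 in the control libraries and 2613, 2999, and 2765 in the *Hif1aCKO* libraries. The lowest *Hif1aCKO* library was 83.9% above the highest control library, the widest gap of the 10 genes. Group means were 1302 ± 168 (SD, n = 2) and 2792 ± 194 (SD, n = 3), a fold of 2.14 and a log2 fold change of 1.10 (standard error 0.15). With any single library left out it lay between 0.97 and 1.24, and both ends came from leaving out a control library.

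*Espl1* (ENSMUSG00000058290, chromosome 15, 102296266 to 102324357, plus strand) encodes separase, the protease that cleaves cohesin at anaphase. It was the least abundant of the 10, with normalized counts of 144 and 65.9 in the control libraries and of 112, 165, and 162 in the *Hif1aCKO* libraries. The groups overlapped, and the control libraries differed from each other more than any pair of *Hif1aCKO* libraries. The log2 fold change was 0.48 (standard error 0.42), but 0.016 without control replicate 6 and 1.14 without control replicate 5, so a single control library decides its size. The counting error of its raw counts, 71 to 166 per library, reached 11.9%. Per length, there were 43.2 and 78.6 reads of *Pttg1* for each of *Espl1* in the control libraries and 103, 79.6, and 74.9 in the *Hif1aCKO* libraries, and these ratios overlapped.

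*Cdc20* (ENSMUSG00000006398, chromosome 4, 118432901 to 118437352, minus strand), the mitotic APC/C activator and target of the spindle checkpoint, had 1550 and 1444 normalized counts in the control libraries and 2496, 3703, and 2472 in the *Hif1aCKO* libraries. *Hif1aCKO* replicate 4 stood apart at the top, and the lowest *Hif1aCKO* library was still 59.5% above the highest control library. The means were 1497 ± 74.8 (SD, n = 2) and 2890 ± 704 (SD, n = 3), and the log2 fold change was 0.95 (standard error 0.21), or 0.73 without *Hif1aCKO* replicate 4. Of its exonic bases, 2.84% are shared with *Elovl1* on the opposite strand, and no source says that reads were assigned by strand.

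*Fzr1* (ENSMUSG00000020235, chromosome 10, 81366222 to 81378516, minus strand), the activator that keeps APC/C active in G1 and in postmitotic cells, had 299 and 366 normalized counts in the control libraries and 510, 729, and 323 in the *Hif1aCKO* libraries. *Hif1aCKO* replicate 5 lay between the control libraries, so the groups overlapped. The log2 fold change of 0.65 (standard error 0.33) was 0.32 without *Hif1aCKO* replicate 4 and 0.90 without *Hif1aCKO* replicate 5. The ratio of *Cdc20* to *Fzr1* per length was 12.5 and 9.47 in control libraries and 11.8, 12.2, and 18.4 in *Hif1aCKO* libraries. The RNA ratio of the APC/C activators therefore overlapped between genotypes.

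*Plk1* (ENSMUSG00000030867, chromosome 7, 122159439 to 122169873, plus strand) encodes the polo kinase of mitotic entry, centrosome maturation and cohesin release. Its normalized counts were 751 and 834 in the control libraries and 1534, 1620, and 1389 in the *Hif1aCKO* libraries. The 3 *Hif1aCKO* libraries were close together, and the lowest was 66.5% above the highest control library. The means of 792 ± 58.6 (SD, n = 2) and 1514 ± 117 (SD, n = 3) gave a log2 fold change of 0.93 (standard error 0.16), which stayed between 0.86 and 1.01 with any library left out. This was the narrowest such range of the 10 genes. The antisense gene *Gm44985* covers 7.09% of its exonic bases.

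The Aurora kinases differed in how far the genotypes separated. *Aurka* (ENSMUSG00000027496, chromosome 2, 172356190 to 172370535, minus strand), which acts at centrosomes and spindle poles, had 1045 and 1205 normalized counts in the control libraries and 1599, 1937, and 1336 in the *Hif1aCKO* libraries. The groups did not overlap, but the gap was 10.9%, and the log2 fold change was 0.53 (standard error 0.19). *Aurkb* (ENSMUSG00000020897, chromosome 11, 69045647 to 69051664, plus strand), the kinase of the chromosomal passenger complex, had 571 and 617 in the control libraries and 844, 825, and 551 in the *Hif1aCKO* libraries. *Hif1aCKO* replicate 5 was the lowest library of all for *Aurkb*, which held for no other gene of the set, and the log2 fold change was 0.32 (standard error 0.22). It was 0.49 without *Hif1aCKO* replicate 5 and 0.21 without *Hif1aCKO* replicate 3. The ratio of *Aurka* to *Aurkb* per length was 2.13 and 2.27 in control and 2.21, 2.73, and 2.82 in *Hif1aCKO* libraries, with overlap.

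*Bub1* (ENSMUSG00000027379, chromosome 2, 127801122 to 127831865, minus strand), the kinetochore kinase that recruits other checkpoint proteins, had 786 and 620 normalized counts in the control libraries and 1021, 1434, and 942 in the *Hif1aCKO* libraries. *Bub1b* (ENSMUSG00000040084, chromosome 2, 118598211 to 118641591, plus strand) encodes BubR1, which binds *Cdc20* within the mitotic checkpoint complex, and had 735 and 752 in the control libraries and 951, 1663, and 1058 in the *Hif1aCKO* libraries. In both genes, *Hif1aCKO* replicate 4 was well above the other libraries and the groups did not overlap. The log2 fold changes were 0.69 (standard error 0.23) for *Bub1* and 0.72 (standard error 0.25) for *Bub1b*. Without *Hif1aCKO* replicate 4 they were 0.48 and 0.43.

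*Mad2l1* (ENSMUSG00000029910, chromosome 6, 66535390 to 66547220, plus strand) encodes MAD2, the checkpoint protein that directly captures *Cdc20*. It had the smallest difference of the 10, with 1461 and 1188 normalized counts in the control libraries and 1618, 1327, and 1844 in the *Hif1aCKO* libraries. The groups overlapped, and *Hif1aCKO* replicate 4, the highest library for 8 of the other genes, was here the lowest of its group. The log2 fold change was 0.27 (standard error 0.19) and stayed above 0 with any library left out (0.12 to 0.42). The ratio of *Cdc20* to *Mad2l1* per length was 4.76 and 5.46 in control libraries and 6.93, 12.5, and 6.02 in *Hif1aCKO* libraries, so it did not overlap between the groups. Per kb of the shortest principal transcripts this ratio was 1.02 to 2.68 over the 5 libraries, and that of *Pttg1* to *Espl1* was 94.2 to 223, so the size of such a ratio depends on the length used, although its order among libraries does not. The ratio of *Cdc20* to *Bub1b* did not overlap either, at 4.82 and 4.39 in control and 6.01, 5.10, and 5.35 in *Hif1aCKO* libraries. That of *Bub1* to *Bub1b* did, at 0.809 to 1.05 and 0.847 to 1.05. The set was chosen partly on the high *Cdc20* in this contrast, which favours separation of ratios with *Cdc20* on top. No share over other pairs of genes was computed, and a shift in these ratios was not tested.

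**Figure D4:**
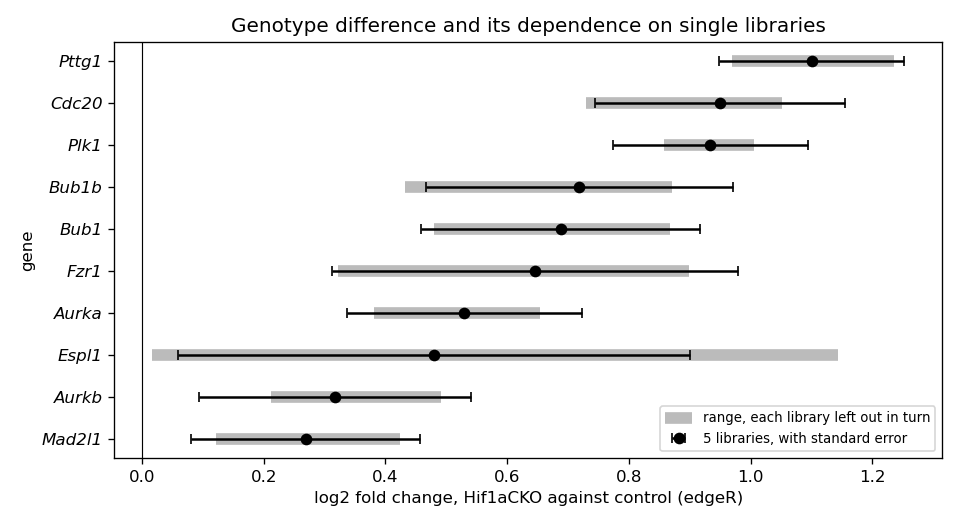
Log2 fold change of each gene, *Hif1aCKO* against control, from the 5 libraries (points, with lines for the standard error) and the range when each library is left out in turn (grey bars). *Plk1* has the narrowest range, 0.86 to 1.01, and *Espl1* the widest, 0.016 to 1.14.

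The libraries differed in how the 10 genes moved together. After each gene was centred on its mean over the libraries, the 10 had log2 medians of -0.42 and -0.44 in the control libraries and 0.19, 0.51, and 0.14 in the *Hif1aCKO* libraries. Both control libraries were below all *Hif1aCKO* libraries, and *Hif1aCKO* replicate 4 was the furthest from zero. Summed normalized counts of the 10 were 8763 and 8275 in control and 13298, 16401, and 12840 in *Hif1aCKO* libraries. *Xist* and Y-linked genes marked control replicate 5 and *Hif1aCKO* replicate 3 as female and the others as male. In the female pair, with 1 library for each genotype, 9 of the 10 genes were higher in *Hif1aCKO*, with log2 differences from -0.37 (*Espl1*) to 1.03 (*Plk1*). Among the male libraries all 10 were higher, from 0.16 (*Aurkb*) to 1.31 (*Espl1*).

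Other markers of the sorted cells also varied. Total counts ranged from 8254211 to 9700887, and *Hif1a* itself had normalized counts of 1584 to 2086 in control and 1757 to 2747 in *Hif1aCKO* libraries, although only exon 2 is floxed and the gene's count covers all exons. All 8 sympathetic neuron markers were counted, and their sum was 47970 to 59617 in control and 41476 to 43672 in *Hif1aCKO* libraries. The sum of 5 general markers of cycling cells (*Mki67*, *Top2a*, *Pcna*, *Mcm2* and *Mcm6*) was 10953 to 12254 in control and 13050 to 14447 in *Hif1aCKO* libraries, but only *Mki67* and *Top2a*, which peak in G2 and mitosis, had groups that did not overlap. *Pcna*, *Mcm2* and *Mcm6*, which serve DNA replication, had overlapping groups. The median of the 5 centred log2 values overlapped as well, at 0.085 and -0.14 in control and 0.029, -0.15, and 0.26 in *Hif1aCKO* libraries, with *Hif1aCKO* replicate 4 the lowest. Relative to the sum of these unlike markers, the 10 genes stood at 0.715 and 0.756 in control and 1.02, 1.203, and 0.889 in *Hif1aCKO* libraries. The sum of 4 chromaffin cell markers was 9492 to 11339 in control and 15023 to 21707 in *Hif1aCKO* libraries, of which *Cartpt* made up most, while *Pnmt*, the enzyme that makes adrenaline, had 28 and 55 raw counts in control and 17, 3, and 11 in *Hif1aCKO* libraries. Schwann cell precursor markers, 5 of 7 with counts, summed to 30.6 to 55.2 in control and 46.9 to 1199 in *Hif1aCKO* libraries. The high value was *Hif1aCKO* replicate 3 alone, with 926 raw counts of *Fabp7* and 8 of *Sox10*, and without it the median log2 fold change of the 10 genes was 0.71, with all 10 higher. Sums were 437 to 807 and 504 to 823 for sensory neurons (3 of 6 markers counted) and 55.7 to 56.2 and 12.9 to 51.9 for motor neurons (2 of 5). A single gene made up nearly all of each sum. For sensory neurons it was *Ntrk3*, with 399 to 864 raw counts, against 2 to 5 of *Pou4f1* and 2 to 16 of *Avil*. For motor neurons it was *Chat*, with 12 to 53 raw counts, against 0 to 7 of *Isl2*. For endothelium (2 of 6), erythroid cells (1 of 6) and mesenchyme (3 of 6) the sums were between 1.07 and 38.0. The part of these shifts in the differences of the 10 genes was not tested.

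The remaining genes of the pathway were described by 9 lists that hold none of the 10, and counts below are read against the shares over all genes given above. In every list, 0 genes were called by edgeR and 0 had an unadjusted p-value under 0.05 with a lower level in *Hif1aCKO* neurons, where 3.85% of all genes did. The share of all genes with every *Hif1aCKO* library below both controls was 12.9%, and across the lists 3 genes showed this pattern.

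**Figure D5:**
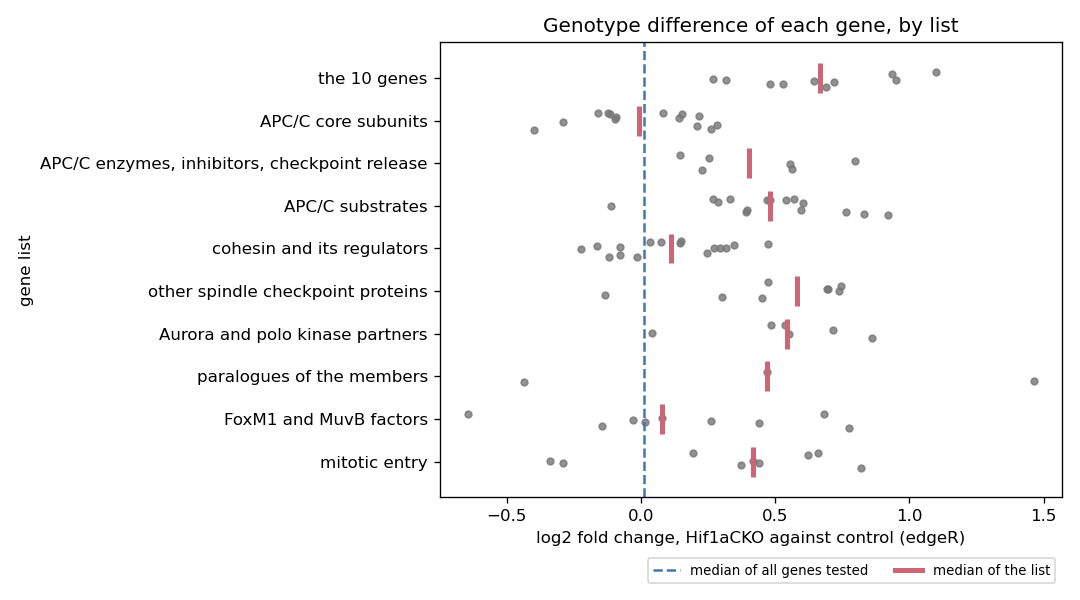
Log2 fold change, *Hif1aCKO* against control, of each tested gene of the set and of 9 pathway lists (grey points), with red bars for list medians and a dashed line for the median of all genes tested, 0.012. The core subunits of APC/C centre on the dashed line, at -0.0053, whereas the lists of APC/C substrates, other checkpoint proteins, kinase partners, paralogues, and mitotic entry have medians from 0.42 to 0.58.

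The core subunits of APC/C divided evenly, with 7 of 14 higher and 7 lower and a median log2 fold change of -0.0053. None had an unadjusted p-value under 0.05. *Anapc11*, the RING subunit that recruits the ubiquitin-conjugating enzyme, was at the upper end at 0.28 (standard error 0.16), with 1516 and 1572 normalized counts in control and 1674, 1841, and 2127 in *Hif1aCKO* libraries. *Anapc4*, a scaffold subunit, was at the lower end at -0.40 (standard error 0.17), with 1853 and 2038 in control and 1771, 1322, and 1342 in *Hif1aCKO* libraries. All 3 *Hif1aCKO* libraries were below both controls for *Anapc4*.

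A list of 6 genes held the ubiquitin-conjugating enzymes of APC/C (*Ube2c* and *Ube2s*), its inhibitors *Fbxo5* and *Mad2l2*, and *Trip13* and *Mad2l1bp*, which take the mitotic checkpoint complex apart. All 6 were higher, with a median of 0.40, and *Ube2c* and *Trip13* had unadjusted p-values under 0.05. *Ube2s*, which extends ubiquitin chains on APC/C substrates, was highest at 0.80 (standard error 0.41), with 56.2 and 51.0 normalized counts in control and 82.6, 90.9, and 106 in *Hif1aCKO* libraries. *Mad2l2* was lowest at 0.15 (standard error 0.19). Among 15 APC/C substrates, 14 were higher (median 0.48), 6 had unadjusted p-values under 0.05, and 8 had every *Hif1aCKO* library above both controls. *Skp2*, an F-box protein that APC/C with *Fzr1* degrades in G1, was highest at 0.92 (standard error 0.28), with 242 and 186 in control and 516, 320, and 379 in *Hif1aCKO* libraries. *Rrm2*, a subunit of ribonucleotide reductase, was the exception at -0.11 (standard error 0.17). DESeq2 called *Ccnb1*, cyclin B1, with 2350 and 2077 in control and 3230, 4659, and 3382 in *Hif1aCKO* libraries and a log2 fold change of 0.76 (standard error 0.19).

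Cohesin, the substrate of separase, and its regulators stayed near the background. Of 16 genes, 10 were higher and 6 lower, with a median of 0.11 and 0 unadjusted p-values under 0.05. The ends were *Sgo2a*, a shugoshin that protects centromeric cohesin, at 0.47 (standard error 0.28) and *Stag1*, a cohesin subunit, at -0.22 (standard error 0.19).

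The 8 other checkpoint proteins had a median of 0.58, with 7 higher and 4 unadjusted p-values under 0.05. *Kntc1*, a subunit of the kinetochore complex with *Zw10* and *Zwilch*, was highest at 0.74 (standard error 0.22), with 357 and 387 normalized counts in control and 546, 774, and 551 in *Hif1aCKO* libraries. *Bub3*, the partner of *Bub1* and *Bub1b*, was lowest at -0.13 (standard error 0.14) with 5036 and 5282 in control and 5045, 5110, and 3958 in *Hif1aCKO* libraries. DESeq2 called *Knl1*, the kinetochore scaffold on which *Bub1* and *Bub1b* assemble, with 829 and 737 in control and 1201, 1339, and 1378 in *Hif1aCKO* libraries and a log2 fold change of 0.74 (standard error 0.16). Its groups did not overlap, and *Hif1aCKO* replicate 4 was not the highest library there.

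Of 7 partners of the Aurora and polo kinases, 6 were tested, all higher, with a median of 0.54, and 5 had unadjusted p-values under 0.05 and non-overlapping groups. *Ajuba*, with 17 counts in all libraries together, was not tested. *Incenp*, the scaffold that binds and activates *Aurkb*, was highest at 0.86 (standard error 0.20) and was called by DESeq2, with 343 and 416 in control and 613, 724, and 733 in *Hif1aCKO* libraries. *Aurkb*, by comparison, had overlapping groups. *Aurkaip1* was lowest at 0.043 (standard error 0.15). Of 3 tested paralogues of the kinases, 2 were higher and 1 lower, with a median of 0.47. *Plk4*, the kinase of centriole duplication, was at 0.47 (standard error 0.18), with 688 and 753 in control and 947, 1156, and 890 in *Hif1aCKO* libraries. Its groups did not overlap, and it was the gene of this list with an unadjusted p-value under 0.05. *Plk2*, which serves centriole duplication and synapses, was at -0.43 (standard error 0.27), with 1281 and 905 in control and 849, 562, and 1016 in *Hif1aCKO* libraries and overlapping groups. *Plk3* was at 1.46 (standard error 0.95) on normalized counts of 5.21 to 21.4 per library.

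The list of FoxM1 and MuvB factors held 9 genes, *Foxm1*, *Mybl2*, subunits of MuvB, *E2f4* and *Tfdp1*. Of these, 6 were higher and 3 lower, with a median of 0.078 and 0 unadjusted p-values under 0.05. *Foxm1* was highest at 0.77 (standard error 0.39), with 232 and 173 in control and 242, 531, and 264 in *Hif1aCKO* libraries. *Lin52*, a MuvB subunit, was lowest at -0.64 (standard error 0.38). *Hif1aCKO* replicate 4, the library with the highest *Foxm1*, was also the one with the lowest *Lin52*, at 107 normalized counts against 202 to 344 elsewhere. In the list of mitotic entry, 7 of 9 genes were higher, with a median of 0.42 and 3 unadjusted p-values under 0.05. *Cdc25b*, a phosphatase that activates Cdk1, was highest at 0.82 (standard error 0.35), with 124 and 208 in control and 238, 387, and 253 in *Hif1aCKO* libraries. *Arpp19*, an inhibitor of the phosphatase that opposes Cdk1, was lowest at -0.34 (standard error 0.18), with 4562 and 4558 in control and 4406, 2799, and 3606 in *Hif1aCKO* libraries.

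The genes with profiles closest to *Pttg1* and *Cdc20* over the 5 libraries were found by the root mean square distance of centred log2 values, which includes the genotype difference. For *Pttg1* they were *Zfp740* (distance 0.065), *Sclt1* (0.087), *Sft2d3* (0.10), *Mdc1* (0.11), and *Pxmp2* (0.11), where the median distance of all genes compared was 0.615. These 5 genes were less abundant, with mean normalized counts of 94.7 to 228. For *Cdc20* they were *Atxn2l* (0.065), *Hras* (0.066), *Ccdc61* (0.070), *Aspm* (0.074), and *Dnajc21* (0.077), where the median was 0.568. *Aspm*, a spindle pole protein of dividing neural progenitors, had 955 and 877 normalized counts in control and 1431, 2235, and 1325 in *Hif1aCKO* libraries. All 5 genes nearest to *Cdc20* were highest in *Hif1aCKO* replicate 4, as *Cdc20* was, which their choice by profile favours. The lists for *Pttg1* and *Cdc20* shared no gene, and no other gene of the set was on either.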

How the data were processed

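The deposited table holds the authors' raw counts per gene for 5 libraries, without normalization. Per the labels and the methods, reads were trimmed with cutadapt (version 1.18) and Trimmomatic, cleared of ribosomal and vector sequence with Bowtie (version 1.2.2) and SortMeRNA, mapped to GRCm38 with STAR (version 2.7.0c), and counted uniquely with Rsubread, so reads shared between near-identical copies were dropped. Names and positions came from GENCODE release M21 (20195 of 20224 identifiers matched).

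Libraries were grouped by genotype. The main fit was edgeR (version 4.0.16, R version 4.3.3) with TMM, filterByExpr, and the quasi-likelihood test over 15032 genes. Calls required 3 criteria, an adjusted p-value (Benjamini-Hochberg) under 0.05, an absolute log2 fold change over 0.3, and on average 50 or more normalized counts. DESeq2 (version 1.42.0) and limma-voom (version 3.58.1) were alternatives, beside other scalings and filters, a term for sex, and leaving out each library. Normalized counts were divided by total count times TMM factor and scaled to the mean of these. Counts of pairs of libraries differed beyond sampling noise (chi-square per degree of freedom 14.2 to 35.1), so none was a duplicate. Counting error covers the sampling of reads only.

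The 10 genes, the 9 pathway lists and the marker lists were chosen with earlier results of these data known. The genes named are the 10, the highest and lowest tested gene of each list, and the 5 nearest profiles of *Pttg1* and *Cdc20* among genes with a mean of at least 50. Other list genes named for a p-value or a DESeq2 call (*Ube2c*, *Trip13*, *Ccnb1*, *Knl1*, *Plk4*) were chosen after their values were seen. Python (version 3.11.15), numpy (version 2.4.6), pandas (version 2.3.3) and matplotlib (version 3.10.9) were used for tables and plots. The protein sequences and the *Aurkb* promoter were not used here.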

Additional observations from a re-analysis of the deposited data

How the results depend on the processing

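The log2 fold changes of the 10 genes kept their direction in all 120 values from 12 alternatives, and 1 moved by more than the spread between libraries (*Espl1*, 1.14 without control replicate 5). The number of genes called in the whole table was 0 with edgeR's quasi-likelihood test and 60 with DESeq2, and spanned 0 to 4 over the fits that omit 1 library (4 without control replicate 5). The median of the 10 genes ranged from 0.41 (without *Hif1aCKO* replicate 4) to 0.81 (without *Hif1aCKO* replicate 5). Further counts were chosen after seeing the data. The number of the 10 with every *Hif1aCKO* library above both controls, 6, became 7 to 8 with each library left out, since fewer libraries have to separate. No share over all genes was computed for these smaller sets, and the 12.9% given above does not apply to them. The number with an unadjusted edgeR p-value under 0.05, also 6, became 5 to 8 with a *Hif1aCKO* library left out. In these fits the number over all genes, in either direction, also varied. It was 1773 of 14643 without *Hif1aCKO* replicate 3, 980 of 14548 without replicate 4, and 924 of 14526 without replicate 5. Where 1 control library was left, it was assumed to vary as the *Hif1aCKO* libraries do. No paired analysis was possible because the labels do not pair the libraries, and nothing says that the shared replicate number 5 marks a pair. The 2 control libraries limit the precision of every difference, and *Espl1*, with 71 counts in control replicate 6, is limited most by depth.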
